A study of Mus musculus with 2 samples.

Results

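The 34 genes described here serve protein folding in the endoplasmic reticulum (ER) and the stress responses tied to it. They were listed by name from known function, with earlier results of these data known. There were 17 chaperones and folding enzymes of the ER and 3 genes of ER-associated degradation. The others were 4 sensors and transcription factors of the unfolded protein response and 10 stress genes of the ATF4 type. Each gene was represented by its brightest probeset that carried a single gene symbol, which gave 34 of 18193 genes, and all 34 were among the 9097 genes in the upper 50% of mean log2 signal. The cells were RAW264.7, a mouse macrophage-like line. One pool carried the empty retroviral vector MSCV and the other carried MSCV encoding miR-155, a microRNA that is induced in activated macrophages; each was hybridised to 1 Affymetrix array. Both pools shared infection in the presence of polybrene, puromycin at 7 µg/ml, cloning by limiting dilution and the pooling of RNA from 5 clones. No inducer of ER stress is named in the labels. A pool of clones averages over differences between clones, and nothing measures how far 1 pool differs from the next.

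The ER lumen is where secreted and membrane proteins fold, with the help of chaperones and of enzymes that form disulphide bonds. When unfolded proteins accumulate, the sensors ATF6, IRE1 (encoded by Ern1) and PERK (encoded by Eif2ak3) signal to the nucleus: ATF6 and XBP1 raise chaperone and degradation genes, while PERK phosphorylates eIF2α, slows general translation and favours translation of ATF4. ATF4 is also reached from amino acid shortage, viral RNA and heme shortage, and this wider pathway is called the integrated stress response. In macrophages, XBP1 and ATF4 are known for their part in cytokine production after stimulation of Toll-like receptors.

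The microRNA that sets the arms apart is shown because its seed, the bases 2 to 8 that pair with target mRNAs, defines which transcripts it can bind. The mature 5p strand as RefSeq lists it (GRCm38.p6, chr16:84714143-84714165, plus strand) has the seed in capitals.
miR-155-5p: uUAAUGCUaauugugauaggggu

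With 1 array per group there was no test, and every difference describes these 2 arrays alone. A log2 ratio compares the miR-155 array with the empty-vector array, so that a value above 0 means a higher signal with miR-155, and the local SD beside it is the robust SD of the ratio among the 500 genes nearest in mean signal. With the 9097 genes put in 5 classes of equal size by signal, the robust SD was 0.51 in the dimmest class and 0.15 in the brightest. A signal is the brightness of 1 probeset, so signals are compared between the arrays and not between genes. The lowest mean signal among the 9097 genes, 25.8, served as a floor, and a gene with a reading below it is described by its signals; Trib3 is the only such gene among the 34, and it still enters the counts and medians. All 17 macrophage markers measured, among them Csf1r, Cd68 and Lyz2, read above the floor on both arrays, whereas 3 of 40 markers of B and plasma cells, T and NK cells, stromal cells, neutrophils and mast cells did. The macrophage markers themselves had a median log2 ratio of 0.33, from Adgre1 at −0.71 to Cd14 at 1.26. Of the 17, 6 were below 0, 5 were at least 1.5-fold higher and 2 as much lower. Among the 9097 genes, the shares were 58.0%, 5.32% and 5.99%. The part of these markers in the results below was not tested. The median log2 ratio of the 9097 genes was −0.05.

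Of the 34 stress genes, 30 lay within 1.5-fold between the arrays. Ddit4, Atf3 and, with 1 reading below the floor, Trib3 were at least 1.5-fold higher on the miR-155 array, and Fkbp11 was at least 1.5-fold lower. Over all genes kept, 5.32% passed that fold upwards and 5.99% downwards, which compares with 3 and 1 of 34 here. After centring on the median of all probesets, that split over all genes was 6.78% higher and 4.75% lower. The commoner feature was a small shift: 28 of the 34 had a ratio below 0, against 58.0% of all genes kept, and the median of the 34 was −0.19. Where more than 1 probeset measured a gene, most of the further ones were also below 0: of 26 further probesets with both readings at the floor or above, in 14 of the genes, 20 had a ratio below 0, against 60.0% of such probesets over all genes kept. A further probeset had the opposite sign to the brightest in Hspa5, Canx, Hyou1, Sel1l, Xbp1 and Atf6.

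**Figure D1:**
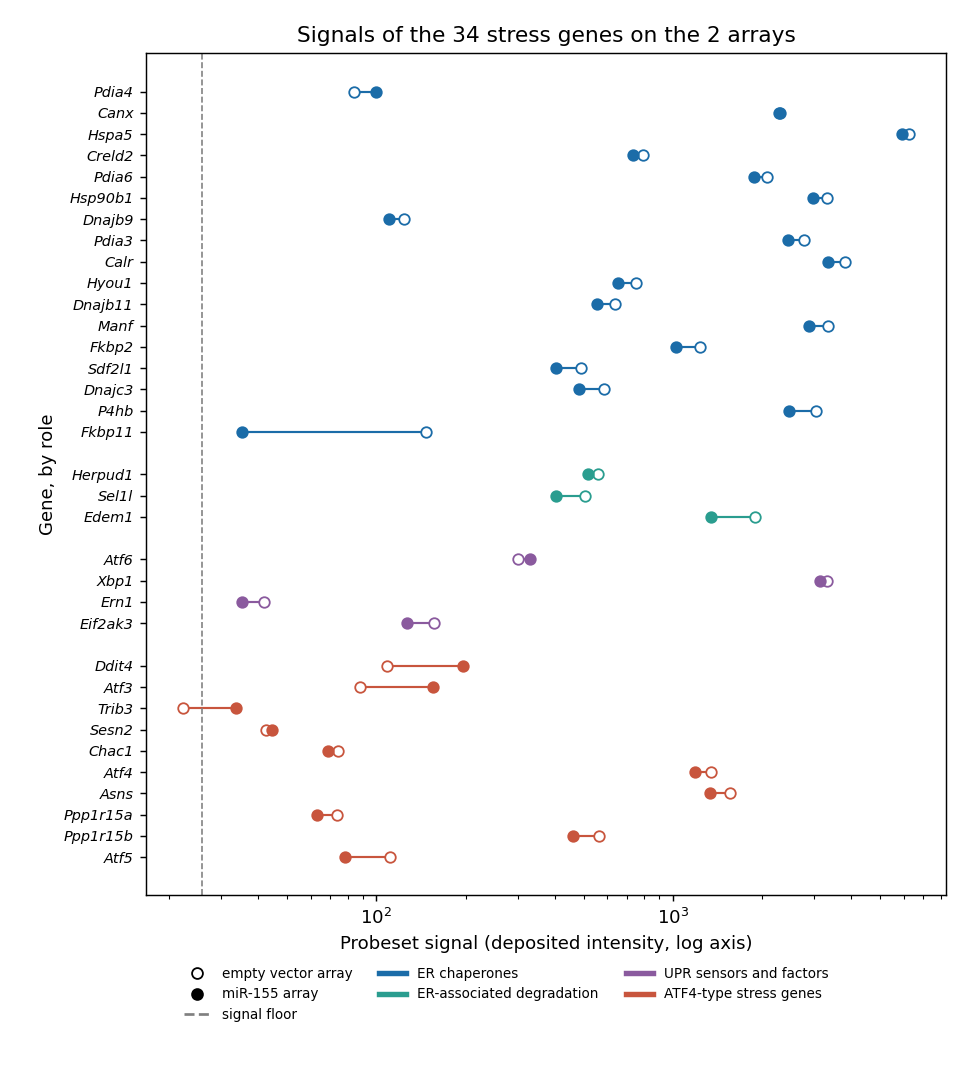
Signals of the 34 genes on the empty-vector array (open circles) and the miR-155 array (filled circles) on a log axis, 1 row per gene, grouped by role; the dashed line is the signal floor of 25.8. Fkbp11 has the longest line to the left and Ddit4, Atf3 and Trib3 the longest to the right, and for Canx the 2 circles coincide.

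Of the 4 roles, the ER chaperones and folding enzymes were the most even, with a robust SD of 0.12. Evenness was not particular to them: heat shock proteins (0.09) and other eIF2α kinases and partners (0.10), described below, spread less. Of 17, 16 read lower on the miR-155 array, against 58.0% of all genes kept, and 1, Pdia4, read higher. Their median log2 ratio was −0.20, and without Fkbp11 the ratios ran from −0.30 to 0.25 with a robust SD of 0.09. In the upper 25% of signal, where 14 of the 17 lie, the ratio was below 0 in 61.0% of all genes and in all 14. Compared with genes of like signal, 15 of the 17 lay below the local median. More than 1 local SD from it lay 9 of 17, against 3046 of the 9097 genes kept. More than 2 local SDs from it lay 2 of 17, P4hb and Fkbp11, against 907 of 9097. The lower direction of the group held under each scaling tried. Its medians were −0.15 and −0.12 after centring on the median of the genes kept or of all probesets and −0.14 after quantile normalisation. Under these scalings, in the same order, 15, 14 and 15 of 17 were below 0, against 49.99%, 45.06% and 50.45% of all genes kept.

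Hspa5, the ER chaperone BiP that holds the sensors inactive, read 6277 with the empty vector and 5947 with miR-155. Hsp90b1, the HSP90 of the ER also called GRP94 and needed for folding of Toll-like receptors, read 3310 and 2975. Their log2 ratios were −0.08 (local SD 0.11) and −0.15 (local SD 0.11), so on their brightest probesets both read slightly lower with miR-155. The further probesets of Hspa5 disagreed, at −0.20 and 0.53, and that of Hsp90b1 was lower than its brightest, at −0.41. With all probesets of Hspa5 averaged its ratio turned to 0.08. Centred on the median of all probesets of the arrays, the brightest probeset of Hspa5 had a ratio of 0.

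Calreticulin (Calr) and calnexin (Canx) bind the sugar chains of new glycoproteins. Calr read 3810 and 3328, a log2 ratio of −0.20 (local SD 0.11), with −0.14 and −0.17 in its further probesets. Canx read 2296 and 2281, a ratio of −0.0091 that was near 0. The further probesets of Canx went both ways, at 0.09 and −0.68.

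Disulphide isomerases, which make and rearrange disulphide bonds, were lower in 3 of 4 cases, against 58.0% of all genes kept. P4hb, which encodes the protein disulphide isomerase PDI, read 3036 and 2473, with a log2 ratio of −0.30 (local SD 0.12). Pdia3, the isomerase that works with calnexin and calreticulin, read 2778 and 2452 (−0.18), and Pdia6 read 2071 and 1879 (−0.14). Pdia4 was the exception among the chaperones, at 84.0 and 99.6, a ratio of 0.25 inside its local SD of 0.36. P4hb had the largest ratio of this family against its local SD, at −2.20 SDs from the local median.

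The members that assist BiP, namely Dnajc3, Dnajb11, Dnajb9, Sdf2l1 and Hyou1, read lower on their brightest probesets. Dnajc3, also known as p58IPK, which feeds back on PERK, read 585 and 481, a log2 ratio of −0.28 (local SD 0.20). Its 3 further probesets with both readings at the floor read −0.59, −0.31 and −0.61, so each was lower than that of the brightest. Dnajb11 read 639 and 556 (−0.20), Dnajb9 read 123 and 110 (−0.17) and Sdf2l1, a partner of DNAJB11, read 491 and 405 (−0.28). Hyou1, which exchanges the nucleotide on BiP, read 750 and 653. Its ratio of −0.20 was not matched by its further probesets, at −0.0048 and 0.09.

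Creld2 and Manf encode ER proteins that are secreted under stress. Creld2 read 795 and 734, a log2 ratio of −0.12 (local SD 0.18), and Manf read 3338 and 2885, a ratio of −0.21 (local SD 0.11). Both were lower with miR-155, Creld2 within its local SD and Manf by more, each on a single probeset. Fkbp2, a prolyl isomerase of the ER, read 1237 and 1024 (−0.27).

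Fkbp11, another prolyl isomerase of the ER, which is abundant in secretory cells, stood apart from every other gene of the set. Its signal was 147 with the empty vector and 35.1 with miR-155, a 4.19-fold lower reading, with a log2 ratio of −2.07 (local SD 0.38). By that ratio it ranked as the 11th lowest of the 9097 genes, at −5.27 local SDs from its local median. The difference rests on 1 probeset, whose s_at suffix marks probes that can match more than 1 transcript. Its 2 further probesets read 11.1 and 15.2, and 3.12 and 4.91, all below the floor, so they give no second measurement. With all 3 averaged the ratio was −0.32.

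Xbp1, whose product raises chaperone and degradation genes, had a ratio of −0.09. Of the 3 degradation members, Edem1 had the lowest ratio at −0.49, beside Sel1l at −0.32 and Herpud1 at −0.11. The median of the chaperones was −0.20. Whether any of these ratios went with Xbp1 was not tested. Among plasma and B cell markers, Sdc1, a plasma cell surface marker, read 62.9 and 32.1 and Ighm 1685 and 1523, while Jchain, Mzb1, Prdm1 and Irf4 were below the floor on both arrays. Below the floor, Cd79a, Cd79b, Ms4a1, Jchain, Mzb1 and Tnfrsf17 read higher with miR-155, and Pax5, Irf4, Prdm1 and Pou2af1 read lower. The summed signal of the 12 measured markers of this kind was 1809 and 1631, most of it from Ighm. Their part in the Fkbp11 difference was not tested.

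**Figure D2:**
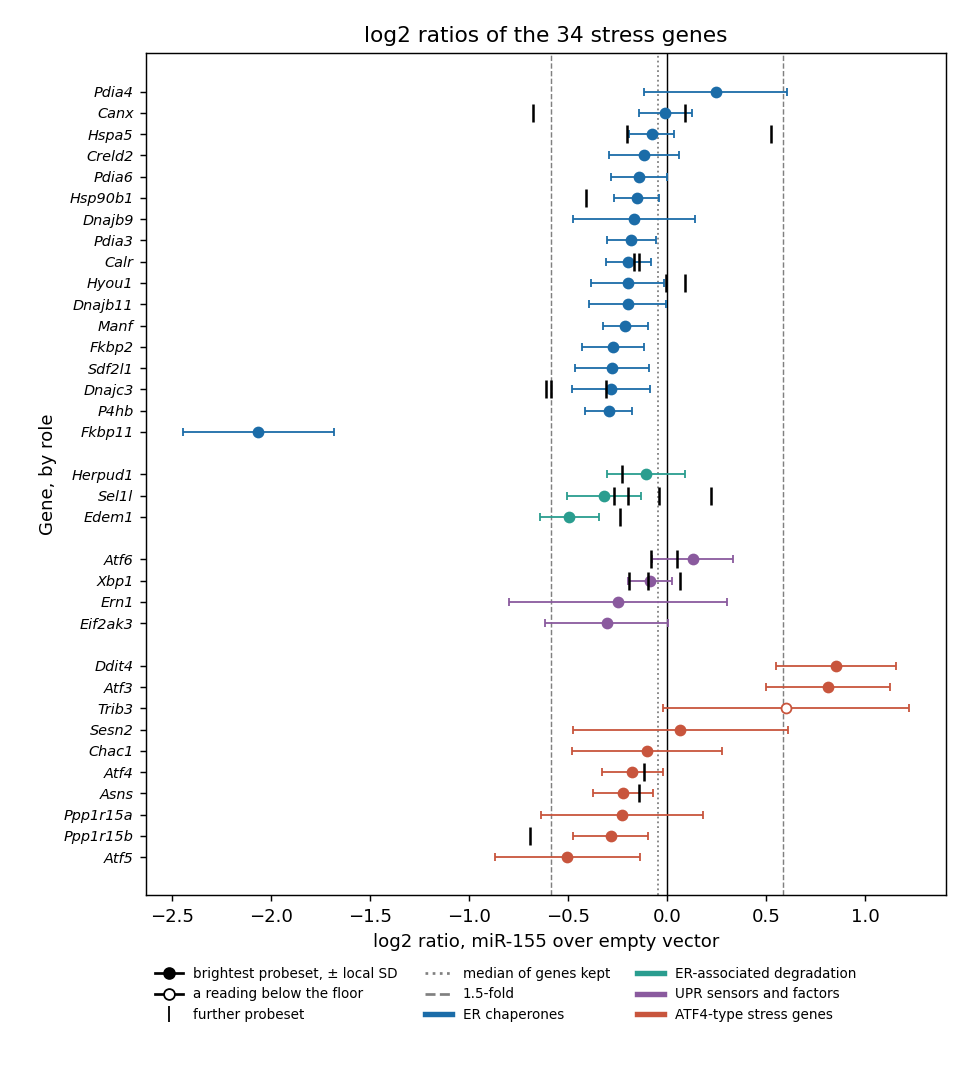
Log2 ratios of the 34 genes (miR-155 over empty vector), sorted within each role; circles are the brightest probesets with bars of ± 1 local SD, an open circle marks a reading below the floor, and black ticks are further probesets with both readings at the floor or above. The ER chaperones other than Fkbp11 sit between −0.30 and 0.25, while ATF4-type genes spread from −0.50 to 0.85.

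Some of the chaperone promoters hold a known response element, which is tied to the ER stress response for which the genes were listed. The ER stress response element (ERSE) binds NF-Y at its CCAAT end and ATF6 or XBP1 at its CCACG end; the letters searched were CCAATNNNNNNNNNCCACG, on both strands, in the 250 bases before each start that RefSeq lists (GRCm38.p6). Of the 34 genes, 30 had a listed promoter. ERSE occurred in 7 of the 15 chaperones with one and in none of the 15 other genes with one, against 0.113% of all 32851 promoters (37 of them). They lay between positions −212 and −47 from the start. The sites are shown because they are the element found in 7 of the chaperones and lacking in the other 8 with a listed promoter, each along the strand on which it reads CCAAT first, with the 2 bound ends in capitals. A match of letters is a description and not a binding site measured in these cells.
Hspa5, chr2:34772025-34772043, plus strand: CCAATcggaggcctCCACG
Hsp90b1, chr10:86705638-86705656, minus strand: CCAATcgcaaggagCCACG
Hsp90b1, chr10:86705533-86705551, plus strand: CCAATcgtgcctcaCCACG
Calr, chr8:84847075-84847093, plus strand: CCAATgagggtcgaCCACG
Canx, chr11:50325800-50325818, minus strand: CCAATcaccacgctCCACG
Pdia6, chr12:17266491-17266509, plus strand: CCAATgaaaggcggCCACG
Dnajc3, chr14:118937827-118937845, plus strand: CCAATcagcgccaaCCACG
Creld2, chr15:88819520-88819538, minus strand: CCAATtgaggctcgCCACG

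The 7 chaperones with ERSE had log2 ratios from −0.28 to −0.0091 and a median of −0.14. The 8 with a listed promoter but no such match had a median of −0.24 and ran from −2.07 to 0.25, so both sets lay mostly below 0 and overlapped. Only 4 other genes kept held ERSE: Alg12, Ero1b, Pan2 and Syvn1, with ratios from −0.46 to 0.39 around a median of −0.06. To set the site of Hspa5 in its context beside Fkbp11, the 250 bases before the start are given for both, with ERSE ends in capitals where matched. For Fkbp11, RefSeq lists 2 starts; the upstream one is shown, and neither window held ERSE.
Hspa5, chr2:34771840-34772089, plus strand: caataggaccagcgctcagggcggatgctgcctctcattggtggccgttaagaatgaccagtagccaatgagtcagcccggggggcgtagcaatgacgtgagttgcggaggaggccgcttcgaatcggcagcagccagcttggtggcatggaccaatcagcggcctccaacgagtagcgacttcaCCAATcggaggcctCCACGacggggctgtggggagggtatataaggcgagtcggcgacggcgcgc
Fkbp11, chr15:98728199-98728448, minus strand: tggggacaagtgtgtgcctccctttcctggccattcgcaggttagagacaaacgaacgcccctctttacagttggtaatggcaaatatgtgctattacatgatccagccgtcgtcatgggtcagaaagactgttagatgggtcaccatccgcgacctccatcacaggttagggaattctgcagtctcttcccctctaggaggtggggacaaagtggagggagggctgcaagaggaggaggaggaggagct

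Genes of ER-associated degradation, which sends misfolded proteins to the proteasome, read lower in 3 of 3 cases, against 58.0% of all genes kept. Their median log2 ratio was −0.32 on the brightest probesets and −0.17 with their probesets averaged. Edem1, a lectin-like protein that hands over misfolded glycoproteins, read 1887 and 1339. Its ratio of −0.49 (1.41-fold lower, local SD 0.15) lay at −2.86 local SDs from the local median, and its further probeset read −0.24. Sel1l, the adaptor of the HRD1 ubiquitin ligase, read 504 and 403 (−0.32), with 4 further probesets from −0.27 to 0.22. Herpud1, which organises that ligase, read 559 and 518 (−0.11), and −0.23 in its further probeset. Edem1 thus had the lowest ratio of the set after Fkbp11 and Atf5, on probesets bright enough for a small local SD.

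The sensors differed little, and not all one way. Atf6 read 301 and 329, a log2 ratio of 0.13 (local SD 0.20), with 0.05 and −0.08 in its further probesets. Ern1, which encodes IRE1α, read 41.9 and 35.3 (−0.25, local SD 0.55), and Eif2ak3, which encodes PERK, read 156 and 126 (−0.31, local SD 0.31). Each of the 3 sensors lay within 1 local SD of its local median. Xbp1, the factor whose mRNA IRE1 splices, read 3319 and 3126, a ratio of −0.09 (local SD 0.11). Its further probesets read −0.10, −0.19 and 0.06; these values do not separate spliced from unspliced Xbp1 mRNA.

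The ATF4-type stress genes were split. Of 10, 3 were at least 1.5-fold higher with miR-155 and none as much lower, against 5.32% and 5.99% of all genes kept. Trib3, 1 of the 3, had a reading below the floor. A ratio below 0 was found in 6 of 10, near the 58.0% of all genes kept. The median was −0.14, while the mean was 0.08. Atf4 itself, whose product is controlled mainly at translation, read 1345 and 1190, a log2 ratio of −0.18 (local SD 0.15) with −0.12 in a further probeset. Asns, asparagine synthetase and a standard ATF4 target, read 1560 and 1337 (−0.22, and −0.14 in its further probeset). Both read lower with miR-155, as most chaperones did, while Ddit4 and Atf3 read higher.

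Ddit4, which encodes REDD1, an inhibitor of mTORC1 that also answers to low oxygen and glucocorticoid, gave signals of 108 with the empty vector and 196 with miR-155. That is 1.81-fold higher, a log2 ratio of 0.85 (local SD 0.30) and 2.95 local SDs above the local median. Atf3, a stress factor that is also induced by Toll-like receptors and restrains inflammatory genes, read 88.2 and 155. It was 1.76-fold higher, with a ratio of 0.81 (local SD 0.31), 2.77 local SDs above the local median. Each was measured by a single probeset. With an offset of 50 added to both signals, Ddit4 was at 0.63 and Atf3 at 0.57, the latter just inside 1.5-fold.

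Trib3, a pseudokinase induced by ATF4 and CHOP, read 22.2 and 33.7, with the first reading below the floor. Its further probeset went the other way, from 21.3 to 4.49. With the low reading raised to the floor Trib3 lay within 1.5-fold. Sesn2, a sensor of leucine that inhibits mTORC1, read 42.5 and 44.5 in its brightest probeset but 16.9 and 63.1 in its further one, so the probesets of these 2 dim genes disagreed.

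Chac1, which breaks down glutathione and is among the most specific ATF4 targets, read 74.0 and 68.9, a log2 ratio of −0.10 (local SD 0.38). Atf5, a factor translated like ATF4, read 111 and 78.1, with a ratio of −0.50 (1.42-fold lower, local SD 0.37). Neither reached 1.5-fold, and Atf5 was the lowest of the ATF4-type genes. Ppp1r15a (GADD34) and Ppp1r15b (CReP) encode the regulatory subunits that let a phosphatase reverse eIF2α phosphorylation. Ppp1r15a, the inducible one, read 73.7 and 62.9 (−0.23, local SD 0.41). Ppp1r15b, the constitutive one, read 563 and 462 (−0.29, local SD 0.19), and −0.69 in its further probeset.

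Atf3 is shown because it held the core of the amino acid response element, to which ATF4 binds with C/EBP partners. The letters searched were TTGCATCA on both strands in the same 250 bases, given in capitals. They occurred in 0.791% of all promoters and in Atf3, Chac1 and Herpud1 of the 30 genes with one. The ratios of these 3 genes were 0.81, −0.10 and −0.11, so 1 was above 0 and 2 were below. The letters TGACGTCA of the cyclic AMP response element occurred in Ppp1r15a and in 1.55% of all promoters, and those of the unfolded protein response element, TGACGTGG, in none of the 30 and in 0.563%.
Atf3, chr1:191183334-191183583, minus strand: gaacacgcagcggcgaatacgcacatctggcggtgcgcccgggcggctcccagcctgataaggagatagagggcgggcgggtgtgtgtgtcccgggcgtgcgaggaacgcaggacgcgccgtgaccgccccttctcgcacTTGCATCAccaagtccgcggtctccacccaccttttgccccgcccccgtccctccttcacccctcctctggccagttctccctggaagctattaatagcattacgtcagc

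Set against each other, the ER chaperones and the ATF4-type genes differed in spread more than in centre. The median of the ATF4-type genes was 0.06 above that of the chaperones on the log2 scale, −0.14 against −0.20. Of the 10 ATF4-type genes, 6 lay inside the range of the chaperones other than Fkbp11, 3 lay above every chaperone (Ddit4, Atf3 and Trib3, the last with a reading below the floor), and Atf5 lay below that range. The robust SD was 0.26 for ATF4-type genes and 0.12 for chaperones. Signal went with this: the median local SD was 0.34 for the former and 0.16 for the latter, and 12 of 17 chaperones but 2 of 10 ATF4-type genes were in the brightest of the 5 signal classes. Whether the wider spread belongs to the genes or to their dimmer probesets was not tested. In the upper 25% of signal only 3 ATF4-type genes remained, namely Atf4, Asns and Ppp1r15b, and the difference of medians turned to −0.02.

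**Figure D3:**
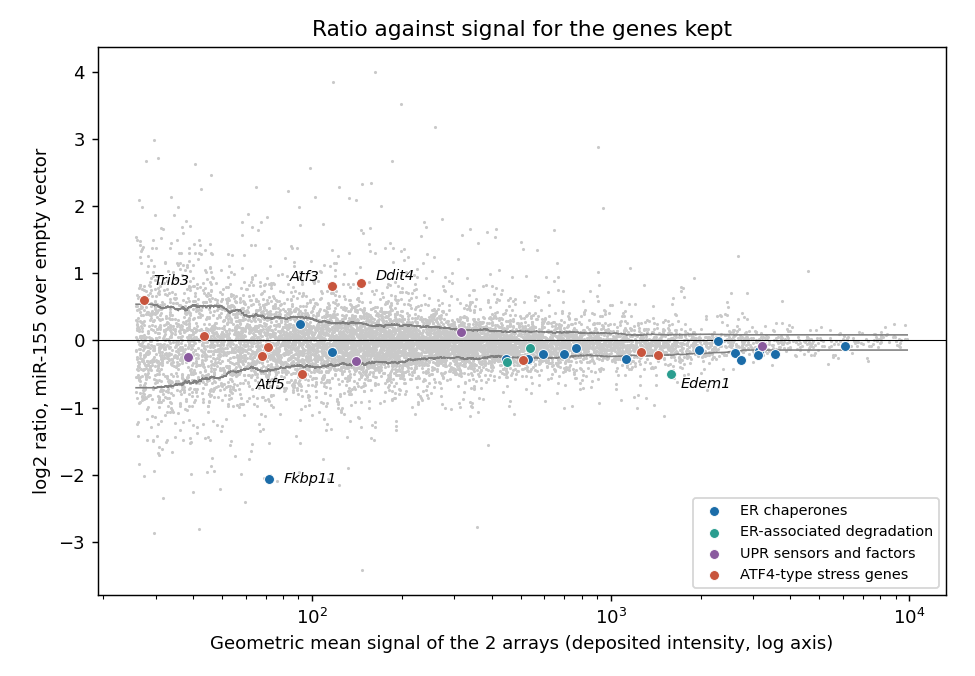
Log2 ratio (miR-155 over empty vector) against the geometric mean signal of the 2 arrays, on a log axis, for the 9097 genes kept (grey) and the 34 stress genes (colours by role); grey lines are the local median ± 1 local SD. Fkbp11 lies at −2.07, Ddit4 and Atf3 at 0.85 and 0.81, and most bright chaperones sit just below 0 where the lines are close together.

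Other genes of the same pathways, listed for their function with earlier results of these data known, put the members in context. In 8 such lists, 217 genes were kept, with a median log2 ratio of −0.08; 2 passed 1.5-fold upwards and 10 downwards, against 5.32% and 5.99% of all genes kept. Genes are named from those with both readings at the floor or above. For translocation into the ER and N-glycosylation, the median was −0.16. A ratio below 0 was found in 35 of 42 genes (83.3%), against 58.0% of all genes kept. The 2 lowest there were the mannosyltransferases Alg2 (−0.64) and Alg1 (−0.53), and the 2 highest Sec11c, of the signal peptidase (0.12), and Tusc3 (0.12). Other ER folding enzymes had a median of −0.09, with 16 of 27 below 0 (59.3%), near the share of all genes kept. Tmx4, a membrane-bound thioredoxin-related protein, read 250 and 145 (−0.79), and Sil1, an exchange factor of BiP, read 151 and 200 (0.41). Prkcsh, of glucosidase II, was at −0.47 and the sulphydryl oxidase Qsox1 at 0.38.

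Further genes of ER-associated degradation had a median of −0.02, with 14 of 25 below 0, near the 58.0% of all genes kept. The difference from the 3 members was not tested. The median of these further genes was above 0 after quantile normalisation (0.02) and after centring on the genes kept (0.02) or on all probesets (0.05). With all probesets averaged it was −0.10, against −0.17 for the members. Erlec1 (−0.55) and Edem3 (−0.49) were the lowest and Rnf139 (0.22) and Faf2 (0.22) the highest. For calcium handling and export from the ER the median was −0.10 over 29 genes, from Rcn2 (−0.63) and Sec23a (−0.53) to Nucb1 (0.46) and the calcium channel Itpr2 (0.48).

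On the side of the integrated stress response, other ATF4 targets for amino acid supply had a median of −0.15. A ratio below 0 was found in 18 of 26 (69.2%), against 58.0% of all genes kept. Of these 26, 3 were at least 1.5-fold lower and none as much higher, against 5.99% and 5.32% of all genes kept. Of the 3 lower genes, 1 had a reading below the floor. The median was −0.05, the level of all genes kept, both in the upper 25% of signal and with all probesets averaged. Jdp2, an AP-1 repressor, read 311 and 187 (−0.73), and Stc2, a secreted glycoprotein, 51.8 and 30.5 (−0.76, local SD 0.58), while Nupr1 was at 0.37 and Rit1 at 0.24. The aminoacyl-tRNA synthetases, several of which ATF4 raises, lay around a median of −0.07, from Qars (−0.64) and Farsa (−0.44) to Cars (0.29) and Eprs (0.28). None of these 2 lists had a gene at least 1.5-fold higher.

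For the other eIF2α kinases, eIF2 subunits and partners of ATF4 the median was −0.07. The ratio was below 0 in 21 of 26 (80.8%), against 58.0% of all genes kept. Among them, Nfe2l2 and Eif2ak2 lay farthest from 0. Nfe2l2, which encodes NRF2, a partner of ATF4, read 994 with the empty vector and 494 with miR-155 (−1.01, local SD 0.18). Eif2ak2 encodes PKR, the eIF2α kinase that senses double-stranded RNA and is itself induced by interferon, and it read 162 without and 313 with miR-155 (0.95, local SD 0.25). Among genes of this list with both readings at the floor, Jun was next above at 0.29 and Cebpb next below at −0.53. The member Eif2ak3, by contrast, was lower by less than its local SD. Cytosolic and mitochondrial heat shock proteins, which answer to misfolding outside the ER, had a median of −0.03 over 23 genes. With both readings at the floor, the ends were Hsph1 (−0.40) and Dnajb1 (−0.31) against Hspb1 (0.17) and Dnaja1 (0.12).

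**Figure D4:**
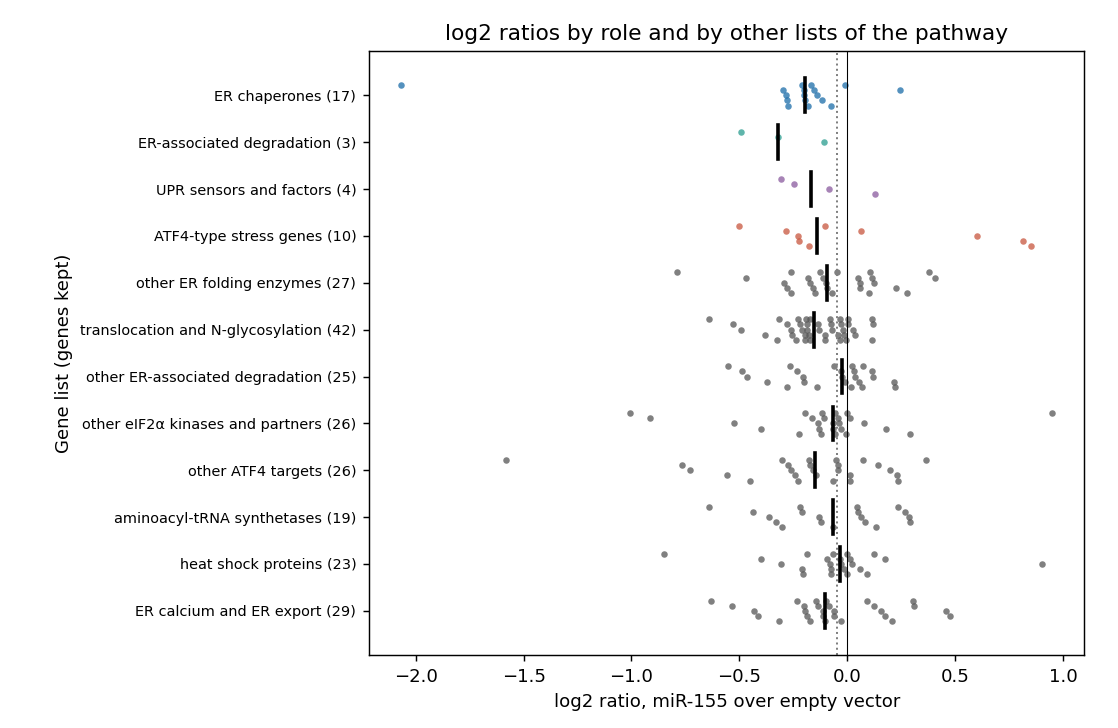
Log2 ratios (miR-155 over empty vector) of every gene kept in the 4 roles (colours) and in 8 other lists of the pathway (grey), with the number of genes in brackets; black bars are medians, the solid line is 0 and the dotted line the median of all genes kept, −0.05. The chaperone points cluster between −0.30 and 0 apart from Fkbp11 at −2.07 and Pdia4 at 0.25, and the median of translocation and N-glycosylation genes is −0.16.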

How the data were processed

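The authors' deposited table holds 1 linear intensity per probeset and array, for 45101 probesets. Per the labels' protocols, total RNA of 5 pooled clones was biotin-labelled and processed by Affymetrix procedures. No source used here names the software that summarised probes or scaled arrays. The platform annotation gave 1 symbol for 34945 probesets, several for 932 and did not list 9160; 64 controls were left out. Symbols were updated by Entrez identifier through RefSeq (GRCm38.p6), which changed 0. The probeset brightest by mean log2 stood for each gene, and the upper 50% of genes by that mean were kept. Ratios used the signals as deposited, with no offset. With 1 array per arm no test, error or p-value was computed; their number limits the precision. Members and lists were chosen with earlier results of these data known. Named were all members and the 2 highest and 2 lowest genes of each other list with both readings at the floor. Promoters and microRNAs came from RefSeq tables. Alternatives covered the filter, offset, scaling, floor and choice of probeset. The steps were tested on simulated ratios. Python 3.11.15, numpy 2.4.6 and pandas 2.3.3 were used.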

Additional observations from a re-analysis of the deposited data

Results flagged for a closer look

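The further probeset of Sesn2, which no count above uses, read 63.1 on the miR-155 array and 16.9 on the empty-vector array, while the brightest probeset of the gene read 44.5 and 42.5. It was picked out as a signal outside the main measurement that was above its level in the control array, and no explanation for the disagreement was tested.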

How the results depend on the processing

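The median of the ER chaperones stayed below 0 under the 10 other settings tried, from −0.27 with all probesets averaged to −0.12 after centring on all probesets, and so did that of the ATF4-type genes, from −0.22 to −0.06. The difference between them, 0.06, ranged up to 0.13 (all probesets averaged) and turned to −0.0247 in the upper 25% of signal, where 3 ATF4-type genes were left; the change comes from the genes removed. The counts of 3 higher and 1 lower members became 0 and 0 in the upper 25% of signal, which leaves out all 4 genes. With an offset of 50 the higher count was 1, Ddit4. With all probesets averaged 3 members were lower (Trib3, Pdia6 and Pdia4), each through a probeset below the floor; Trib3 turned to −0.82, Fkbp11 to −0.32, and Sesn2 joined the higher genes in place of Trib3. The median of the 3 degradation members went from −0.32 to −0.17 with probesets averaged, and that of other ATF4 targets from −0.15 to −0.05 there and in the upper 25% of signal. Without Fkbp11, an alternative added after seeing the data, 0 members were lower, and the chaperone median was −0.19. Without Trib3, also added later, 2 were higher, the ATF4-type median was −0.18 and the difference 0.02. Ratios of members below a signal of about 100 carry a local SD of at least 0.36, so 1.5-fold there is less than 2 local SDs. Among all genes, an offset of 50 left 2.15% at least 1.5-fold higher and 2.07% lower, an offset of 16 left 3.67% and 3.79%, keeping the upper 25% left 2.42% and 2.09%, dropping the filter gave 17.1% and 21.2%, and averaging all probesets gave 7.84% and 10.8%. No paired analysis was possible because each arm had 1 array.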
